A study of Arabis alpina with 9 samples.

Results

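*Short Vegetative Phase* (*SVP*), *Agamous-like 24* (*AGL24*), *Flowering Locus M* (*FLM*) and the *Tempranillo* genes *TEM1* and *TEM2* encode transcription factors that set flowering time in Arabidopsis. The *Arabis alpina* genes described here were those whose Arabidopsis ortholog in the deposited table is one of these 5 genes. There were 4 such genes of 30690 in the table, since *AGL24* (AT4G24540) had no row and was not analysed here. All 4 were transcribed in the shoot apex in every library, and none of them differed between wild type, *pep1-1* and *pep2-1* by the test used.

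In Arabidopsis, SVP is a MADS box repressor that binds DNA together with FLM or FLC and keeps *FT* in the leaf and *SOC1* in the shoot apex low. FLM belongs to the FLC clade of MADS box proteins and takes part in the response to ambient temperature. TEM1 and TEM2 carry an AP2 and a B3 domain, belong to the RAV family, and repress *FT* and the gibberellin synthesis genes *GA3OX1* and *GA3OX2* in young plants. AGL24 is close to SVP in sequence but promotes flowering.

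RNA was sequenced from dissected shoot apices of plants grown for 3 weeks in long days (16 h light and 8 h dark), with 3 biological replicates of each of the 3 genotypes. The wild type was the accession Pajares, a perennial that flowers only after a long period of cold. The *pep1-1* mutant carries a lesion in *PEP1*, the ortholog of *FLC*, and the *pep2* mutant (allele *pep2-1*) one in *PEP2*, the ortholog of *AP2*; both were induced in Pajares with EMS, and for *pep2-1* a marker served to select homozygous plants within a segregating population. Each mutant is represented by 1 allele.

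The libraries held 12871904 to 23829973 reads in genes. In the principal component analysis, the first component held 49.5% of the variance, and replicate A lay lowest on it in each genotype. The shoot meristem genes *STM*, *KNAT1*, *KNAT2* and *CLV1* were read at means of 36.9, 55.8, 37.2 and 89.1 CPM (reads of a gene scaled to a common library total, with TMM), while *WUS* and *CLV3*, which mark the centre of the meristem, had 4 and 6 reads in all libraries together. The summed leaf photosynthesis markers (5 genes) were at 1920 to 3910 CPM and the root markers (5 genes) at most at 1.55 CPM. The summed vascular markers (6 genes) were at 212 to 230 CPM in wild type, 197 to 254 CPM in *pep1-1* and 273 to 315 CPM in *pep2-1*, so that all *pep2-1* libraries lay above the others. The summed shoot meristem markers (6 genes) were at 173 to 237, 161 to 235 and 228 to 293 CPM in the same order. *STM*, *KNAT1* and *KNAT2* were each higher in all *pep2-1* libraries than in wild type, with log2 fold changes of 0.36, 0.38 and 0.57 that did not pass the test (edgeR adjusted p = 0.296, 0.328 and 0.238). Libraries of these genotypes did not overlap in 21.5% of all genes tested. *CLV1*, the other gene tested in this list, did overlap between them (log2 fold change 0.27; edgeR adjusted p = 0.506). Of the vascular genes, *SEOR1*, which encodes a phloem protein, was higher in *pep2-1* than in wild type by a log2 fold change of 0.61 (SE 0.126; edgeR adjusted p = 0.0472), and *ATHB8*, a gene of the procambium, was higher in *pep2-1* than in *pep1-1* by 0.61 (SE 0.132; edgeR adjusted p = 0.0441). Both changes were below the fold threshold for a call. All 6 vascular genes had a log2 fold change above 0 in *pep2-1* over wild type. *SUC2* did not follow the sum in every library, at 40.6 CPM in *pep2-1* replicate A against 60.7 to 64.5 CPM in wild type. Over all settings the adjusted p ranged from 0.00106 (DESeq2) to 0.188 for *SEOR1*. For *ATHB8* it ranged from 0.00149 (without the replicates A) to 0.153. It was at most 0.05 in 12 of 18 settings for *SEOR1* and in 10 of 18 for *ATHB8*. The part of tissue composition in the values below was not tested, and fewer cells of a type cannot be told apart from less RNA per cell in such dissected apices.

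The *SVP* ortholog (AALP_AA6G290200, paired with AT2G22540) lies on chromosome 6 at 30277715 to 30282040 of the *A. alpina* reference genome. It was the most abundant of the 4 genes, with 539 to 1119 reads per library. In wild type its level was 58.8, 43.1 and 42.2 CPM in replicates A, B and C. In *pep1-1* it was 55.6, 47.6 and 51.2 CPM, and in *pep2-1* it was 70.7, 41.7 and 51.5 CPM. The 3 genotypes overlapped, and replicate A was the highest library in each of them. The means were 48.0 ± 9.31 CPM in wild type, 51.5 ± 3.98 CPM in *pep1-1* and 54.6 ± 14.8 CPM in *pep2-1* (SD, n = 3). The log2 fold change was 0.19 for *pep2-1* over wild type (95% interval −0.23 to 0.61; edgeR adjusted p = 0.668), 0.10 for *pep1-1* over wild type (−0.31 to 0.52; adjusted p = 0.997) and 0.09 for *pep2-1* over *pep1-1* (−0.33 to 0.51; adjusted p = 0.842). Without *pep2-1* replicate A, the first of these values was −0.044 and the last −0.14.

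The gene paired with *FLM* (AALP_AA8G484000, AT1G77080) lies on chromosome 8 at 39061120 to 39065725 and had 272 to 692 reads per library. Its level was 20.4, 28.3 and 27.5 CPM in replicates A, B and C of wild type, 18.4, 26 and 24.7 CPM in *pep1-1*, and 22.6, 26.3 and 23.7 CPM in *pep2-1*. The genotypes overlapped here too, but replicate A was the lowest library in each of them, the opposite of *SVP*. The means were 25.4 ± 4.36, 23 ± 4.07 and 24.2 ± 1.87 CPM in wild type, *pep1-1* and *pep2-1* (SD, n = 3). The log2 fold change was −0.08 for *pep2-1* over wild type (95% interval −0.42 to 0.27; edgeR adjusted p = 0.858), −0.15 for *pep1-1* over wild type (−0.49 to 0.20; adjusted p = 0.983) and 0.07 for *pep2-1* over *pep1-1* (−0.28 to 0.42; adjusted p = 0.850). Arabidopsis *FLM* makes splice forms of different activity, which counts per gene cannot separate.

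The *TEM1* ortholog (AALP_AA1G271200, paired with AT1G25560, chromosome 1 at 18900573 to 18901617) was the most variable of the 4 genes, with 205 to 831 reads. In wild type its level was 14.9, 34.0 and 40.3 CPM in replicates A, B and C, so that the highest library was 2.70 times the lowest. In *pep1-1* it was 26.3, 28.4 and 44.8 CPM, and in *pep2-1* it was 17.3, 26.9 and 21.4 CPM. Replicate A was again the lowest library of each genotype, and the range of wild type covered that of *pep2-1*. The means were 29.8 ± 13.2 CPM in wild type, 33.1 ± 10.1 CPM in *pep1-1* and 21.9 ± 4.81 CPM in *pep2-1* (SD, n = 3). The log2 fold change was −0.45 for *pep2-1* over wild type (95% interval −1.20 to 0.29; edgeR adjusted p = 0.556) and −0.60 for *pep2-1* over *pep1-1* (−1.35 to 0.15; adjusted p = 0.369). It was 0.15 for *pep1-1* over wild type (−0.59 to 0.88; adjusted p = 0.997). These are the widest intervals among the 4 genes, and those of both *pep2-1* comparisons include a fall past the fold threshold. With 1 library left out, the value ran from −0.77 (without replicate A of wild type) to −0.18 (without replicate C of wild type) over wild type, and from −0.77 (without replicate B of *pep2-1*) to −0.32 (without replicate C of *pep1-1*) over *pep1-1*.

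The *TEM2* ortholog (AALP_AA2G113800, paired with AT1G68840, chromosome 2 at 17293926 to 17294964) was the least abundant, with 68 to 191 reads, for which counting alone gives a standard deviation of 7.24% to 12.1%. Its level was 7.73, 7.82 and 10.5 CPM in replicates A, B and C of wild type and 7.11, 9.45 and 9.14 CPM in *pep1-1*. In *pep2-1* it was 8.09, 5.41 and 5.36 CPM. *pep2-1* replicates B and C lay below all other libraries, whereas *pep2-1* replicate A lay within the range of wild type and *pep1-1*. The means were 8.67 ± 1.56 CPM in wild type, 8.57 ± 1.27 CPM in *pep1-1* and 6.29 ± 1.56 CPM in *pep2-1* (SD, n = 3). The log2 fold change was −0.45 for *pep2-1* over wild type (95% interval −0.90 to 0.003; unadjusted p = 0.0513 and adjusted p = 0.330 by edgeR), −0.44 for *pep2-1* over *pep1-1* (−0.89 to 0.022; unadjusted p = 0.0601 and adjusted p = 0.286 by edgeR) and −0.01 for *pep1-1* over wild type (−0.46 to 0.43; edgeR adjusted p = 1.00). Without the 3 replicates A, a choice made after the data were seen, the *pep2-1* values were −0.74 over wild type (edgeR adjusted p = 0.0470) and −0.79 over *pep1-1* (adjusted p = 0.0358), both below the fold threshold. Over all alternatives the adjusted p ranged from 0.0470 to 0.717 in the first of these comparisons and from 0.0358 to 0.539 in the second. These were the only 2 of the 204 values of the 4 genes under the alternatives with an adjusted p of at most 0.05.

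**Figure D1:**
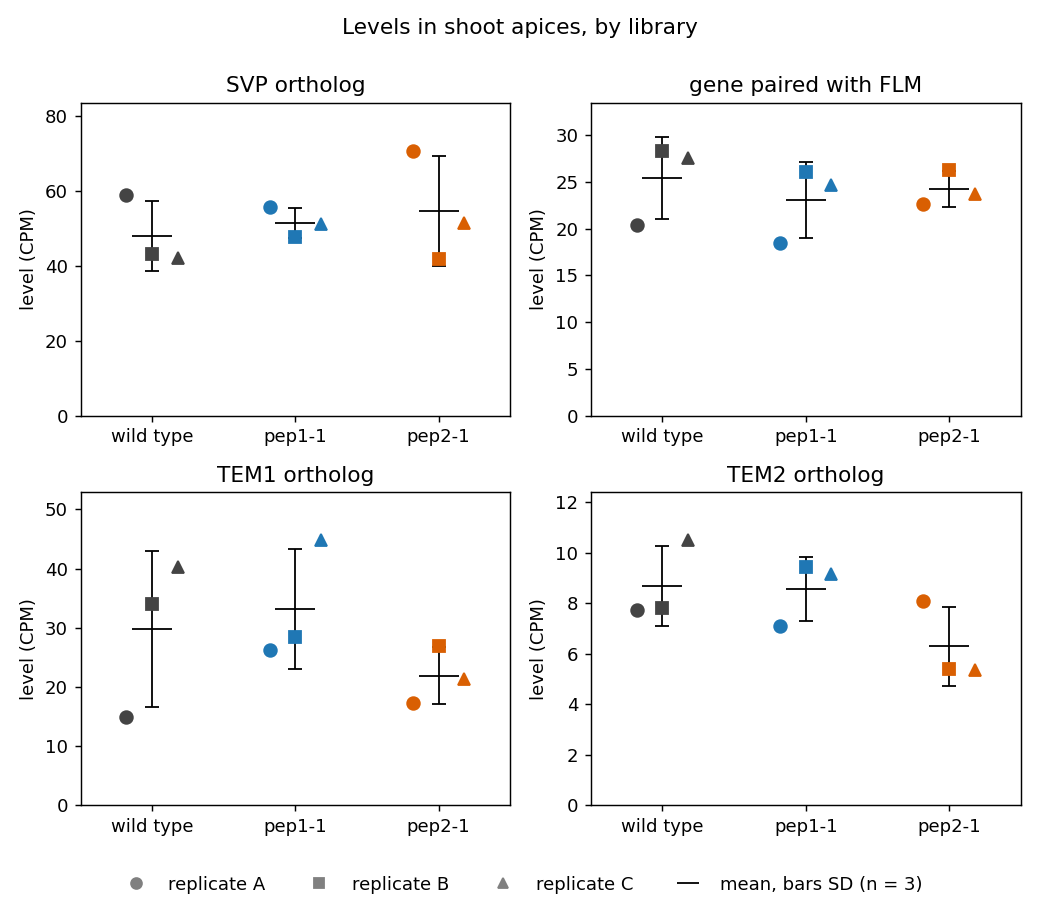
Level of the 4 genes in CPM (vertical axes, from 0) in each library of wild type, *pep1-1* and *pep2-1*, with the replicate letter as the symbol and the mean and SD of 3 libraries in black. The genotypes overlap for every gene; replicate A is the highest library of each genotype for *SVP* and the lowest for the gene paired with *FLM* and for *TEM1*, and the 2 lowest values of *TEM2* are *pep2-1* replicates B and C, at 5.41 and 5.36 CPM.

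A call needed both an adjusted p no higher than 0.05 and a log2 fold change that reached 1 or −1. None of the 4 genes was called in *pep2-1* over wild type, where 0.834% of the 21713 genes tested were called. None was called in *pep1-1* over wild type (background 0.161%, or 35 genes, and 57 genes with a replicate block) or in *pep2-1* over *pep1-1* (background 1.34%). With so few calls among all genes, 0 of 4 is near the background in each comparison. Over the 12 combinations of gene and comparison, 0 had an unadjusted edgeR p under 0.05, against 15.3%, 6.36% and 19.1% of all genes in the 3 comparisons in the same order. The 3 libraries of one genotype never lay wholly above or below those of another, which occurred in 21.5%, 10.9% and 24.1% of all genes. DESeq2 and limma-voom also called 0 of the 12. The exact two-sided permutation test of CPM gave p from 0.2 to 1, and with 3 against 3 libraries it cannot go below 0.1. The 95% interval stayed within a log2 fold change of 1 in either direction for 10 of the 12, the exceptions being *TEM1* in both *pep2-1* comparisons. The comparisons share libraries, so their values are not independent of each other.

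**Figure D2:**
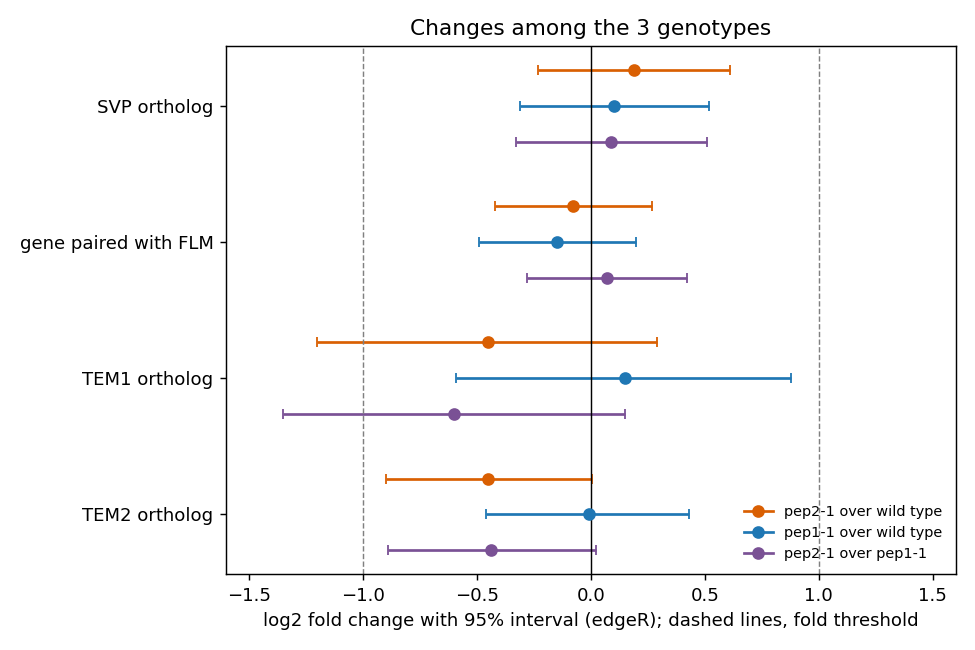
The log2 fold change of each gene (horizontal axis) in the 3 comparisons among genotypes, with its 95% interval from edgeR and dashed lines at the fold threshold of 1 in either direction. All intervals include 0; only those of *TEM1* in the *pep2-1* comparisons pass a dashed line, reaching −1.20 and −1.35.

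Levels of different genes were compared per length, with the FPKM that the authors pooled over the 3 replicates of each genotype. On this scale *SVP* was the highest and *TEM2* the lowest of the 4 genes in all 3 genotypes. The authors' pooled FPKM of *SVP* was 90.5 in wild type, 97.2 in *pep1-1* and 103 in *pep2-1*, above 93.4% to 94.1% of the genes with an FPKM. *TEM2*, at 10.3, 10.2 and 7.45 in the same order, was above 47.1% to 54.6% of them. *TEM1* was at 35.0, 39 and 25.7 FPKM and the gene paired with *FLM* at 29.8, 27.1 and 28.4 FPKM, so that *TEM1* was the higher of these in wild type and *pep1-1* and the lower in *pep2-1*.

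For single libraries, the CPM of each gene was multiplied by the ratio of its mean pooled FPKM to its mean CPM. *SVP* then was at 78.6 to 133 on this scale and *TEM2* at 6.35 to 12.4, and they were the highest and the lowest of the 4 genes in all 9 libraries. *TEM1* (17.6 to 52.6) was above the gene paired with *FLM* (21.6 to 33.3) in 6 libraries and below it in 3, namely replicate A of wild type and replicates A and C of *pep2-1*. These neighbours in the order thus did not differ beyond their spread, with *TEM1* at 0.733 to 1.81 times the gene paired with *FLM*. *SVP* was 2.44 to 5.0 times the gene paired with *FLM*, and the ratio was higher in replicate A than in B and C of each genotype. *TEM1* was 1.92 to 4.93 times its paralog *TEM2*.

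**Figure D3:**
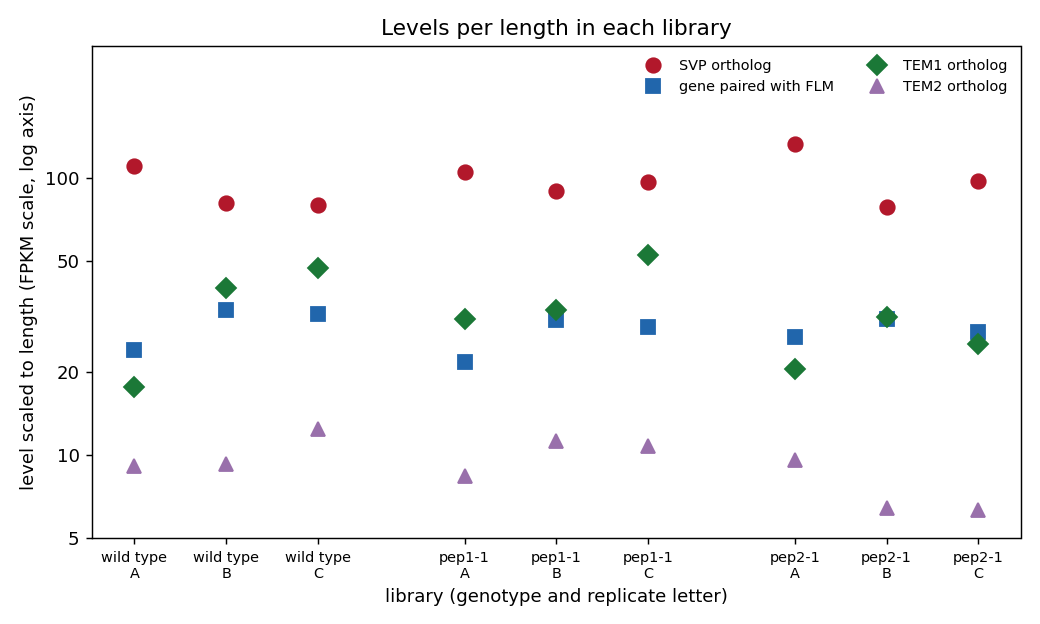
Level of the 4 genes per length (vertical log axis, CPM scaled to the authors' pooled FPKM) in each of the 9 libraries (horizontal axis, genotype and replicate letter), 1 point per gene and library. *SVP* is highest and *TEM2* lowest in every library, whereas *TEM1* and the gene paired with *FLM* change places.

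The spread between replicates was large for these genes. The SD of log2(CPM + 2) within genotypes was 0.267 for *SVP*, 0.208 for the gene paired with *FLM*, 0.495 for *TEM1* and 0.217 for *TEM2*. The added 2 CPM lowers the SD most for genes of low level, here *TEM2*. The median over the 16810 genes with a mean of at least 5 CPM was 0.127, and the 4 genes lay at its 90.3th, 82.7th, 97.9th and 84.2th percentile. *TEM1* thus varied more between libraries of one genotype than nearly all of these genes. A gene was highest in replicate A of all 3 genotypes, as *SVP* was, in 12.9% of the genes tested, and lowest in all 3, as the gene paired with *FLM* and *TEM1* were, in 11%. The chlorophyll-binding protein genes *LHCB2.1*, *LHCB3* and *LHCA1* were also highest in replicate A of all 3 genotypes, but the other leaf markers, *RBCS3B* and *RCA*, were not, both being highest in replicate C of *pep1-1*. The morning clock gene *LHY*, chosen here after its values were seen, was at 4.67, 32.8 and 18.3 CPM in replicates A, B and C of wild type, at 3.45, 22.7 and 10.9 CPM in *pep1-1*, and at 11.1, 9.20 and 3.39 CPM in *pep2-1*. It was thus lowest in replicate A of wild type and *pep1-1* and highest in that of *pep2-1*. What differed in replicate A was not tested.

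Over the 9 libraries, *SVP* and the gene paired with *FLM* ran opposite to each other (Pearson r = −0.72, Spearman rho = −0.867), and without the replicates A r was −0.857. *SVP* and *TEM1* had r = −0.682 (rho = −0.700), but −0.15 without the replicates A. *TEM1* and *TEM2* had r = 0.437 (rho = 0.567), and 0.779 without the replicates A. *SVP* and *TEM2* showed almost no relation, with r = −0.00387 (rho = −0.167). These correlations describe 9 libraries that share genotypes and replicate letters, and 6 after the replicates A were left out.

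The genes with the most similar pattern were sought among 13881 tested genes with an Arabidopsis ortholog and a mean of at least 5 CPM, by Pearson's r of log2 CPM over the 9 libraries. For *SVP* they were AALP_AA6G335000 (ferredoxin-thioredoxin reductase, r = 0.97) and AALP_AA4G028300 (chalcone-flavanone isomerase family, r = 0.95). For the gene paired with *FLM* they were AALP_AA8G123400 (RING/U-box family, r = 0.975) and AALP_AA8G336600 (molybdenum cofactor synthesis, r = 0.97). For *TEM1* they were AALP_AA8G035100, the ortholog of *Phytochrome Kinase Substrate 4* (r = 0.99, and 0.979 without the replicates A), and AALP_AA1G063200, the ortholog of *PDS1* in the synthesis of plastoquinone and tocopherol (r = 0.977, and 0.995 without the replicates A). For *TEM2* they were AALP_AA2G084900 (alpha/beta-hydrolase family, r = 0.943) and AALP_AA7G026500 (*FAR1*-related, r = 0.939). Without the replicates A, r was 0.876 and 0.817 for the matches of *SVP*, 0.812 and 0.841 for those of the gene paired with *FLM*, and 0.99 and 0.969 for those of *TEM2*. For each member these genes had the 2 highest r of 13881 over only 9 libraries, and such a search picks high values by itself. The libraries left without the replicates A took part in the choice, so their r is no separate check.

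The position of the gene paired with *FLM* did not match that of Arabidopsis *FLM*. The Arabidopsis genes on either side of *FLM*, AT1G77060 and AT1G77090, had their *A. alpina* orthologs on chromosome 2, at 25516929 to 25518794 and at 25520349 to 25521946. AALP_AA8G484000 instead lay on chromosome 8 near orthologs of *MAF3* and *MAF4*, genes of the Arabidopsis *MAF2* to *MAF5* cluster. The ortholog of AT5G65040 ended 3773 bp before it. On its other side came first, after a gap of 2430 bp, a gene without an Arabidopsis ortholog. The orthologs of *AGL33*, *MAF3* and *MAF4* followed, that of *MAF3* starting 11537 bp beyond the end of AALP_AA8G484000. *MAF3* and *MAF4* encode FLC clade MADS box proteins. No row was paired with *MAF2*, *MAF5* or *FLC*, so this gene was called here by its pairing in the table. The sources used here do not give how reads that fit both it and a close paralog were assigned, which makes the level of each gene of the clade uncertain. No gene overlapped any of the 4 members.

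The *MAF3* ortholog (AALP_AA8G484300) was at 13.4, 19.0 and 15.6 CPM in replicates A, B and C of wild type, at 12.7, 15.2 and 14.1 CPM in *pep1-1* and at 13.7, 14.6 and 13.8 CPM in *pep2-1*. It was lowest in replicate A of each genotype, as was the gene paired with *FLM*, and the levels of these neighbours ranked almost alike over the 9 libraries (r = 0.828, rho = 0.983, and r = 0.86 without the replicates A). Its log2 fold change over wild type was −0.20 in both *pep2-1* and *pep1-1* (edgeR adjusted p = 0.510 and 0.918). Per length it was the higher of the pair, at a mean of the authors' pooled FPKM over genotypes of 37.3 against 28.5. The *MAF4* ortholog had 6 reads in all.

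**Figure D4:**
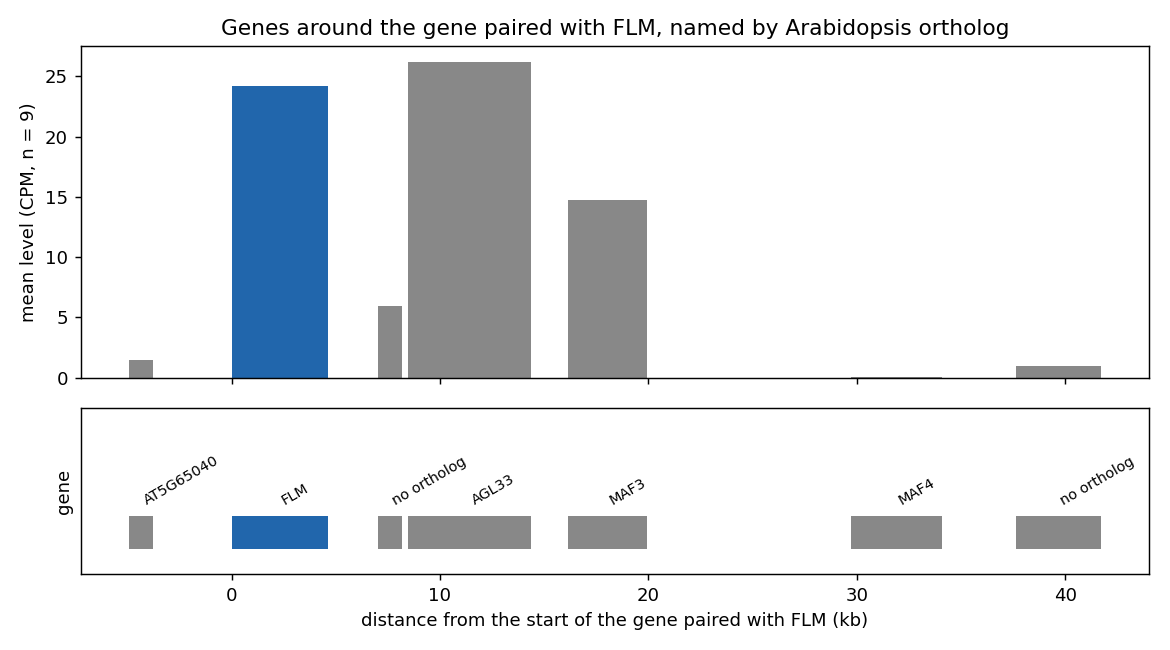
Genes around the gene paired with *FLM* (blue), drawn to scale by distance from its start in kb (horizontal axis) and named by Arabidopsis ortholog; bar heights in the upper panel are the mean level over 9 libraries in CPM and bar widths are the gene spans. The gene lies near *AGL33*, *MAF3* and *MAF4* orthologs, with a gene without ortholog between it and *AGL33*, and means are 24.2 CPM for it and 14.7 CPM for *MAF3*.

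Among 13 MADS box genes that act with or beside SVP and AGL24, 10 had a row and 6 were tested. Of these 6, 1 was called higher in *pep2-1* and 1 in *pep1-1* than in wild type, and 1 was called lower in *pep2-1* than in *pep1-1*, against called shares of all genes of 0.834%, 0.161% and 1.34%. The median log2 fold changes were 0.18, 0.38 and −0.13 in these 3 comparisons, against −0.0013, −0.0025 and −0.0068 over all genes tested. The gene called in both mutants was *SOC1* (AALP_AA4G246000), a floral integrator repressed by SVP and activated by AGL24 in Arabidopsis. It was at 1.6, 1.51 and 1.55 CPM in replicates A, B and C of wild type, at 8.94, 8.08 and 9.37 CPM in *pep1-1*, and at 6.0, 6.41 and 5.04 CPM in *pep2-1*. All libraries of both mutants lay above wild type, by a log2 fold change of 2.5 in *pep1-1* (SE 0.156; edgeR adjusted p = 0.000111) and 1.90 in *pep2-1* (SE 0.159; adjusted p = 0.000533). *SOC1* thus rose in both mutants, while *SVP* in the same libraries had log2 fold changes of 0.10 and 0.19 that did not pass the test. Between the mutants, *SOC1* was lower in all *pep2-1* libraries than in *pep1-1*, by a log2 fold change of −0.59 (SE 0.138; edgeR adjusted p = 0.0556). The adjusted p was at most 0.05 in 3 of 18 settings. Libraries of these genotypes did not overlap in 24.1% of all genes tested.

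*AGL19* (AALP_AA3G221600), a floral activator related to *SOC1*, was at 6.85, 7.66 and 8.64 CPM in replicates A, B and C of wild type, at 10.1, 9.67 and 9.37 CPM in *pep1-1* and at 4.23, 4.10 and 3.86 CPM in *pep2-1*. The 3 genotypes did not overlap. It was lower in *pep2-1* than in *pep1-1* by a log2 fold change of −1.25 (SE 0.130; edgeR adjusted p = 0.00177). In *pep2-1* over wild type it was −0.92 (SE 0.130; edgeR adjusted p = 0.00942), short of the fold threshold, and −1.02 without the replicates A. The value of *pep1-1* over wild type was 0.33 (edgeR adjusted p = 0.655). The floral repressor *AGL18*, the most abundant gene of the list, stayed between 8.80 and 11 CPM in all libraries.

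Of 8 genes that SVP or the TEM proteins bind or repress in Arabidopsis, 7 had a row and 5 were tested. The only gene called was *SOC1*, in both mutants over wild type, already counted among the MADS box genes above. The called shares of all genes were 0.834% in *pep2-1* over wild type and 0.161% in *pep1-1* over wild type. In *pep2-1* over *pep1-1* 0 were called (share 1.34%). The median log2 fold changes were 0.74, 0.46 and −0.24 in the same order of comparisons, against −0.0013, −0.0025 and −0.0068 over all genes tested. With 5 genes the median is the value of a single gene, in the first comparison that of *GA3OX1*, which did not pass the test. *FT*, which encodes the mobile flowering signal made in leaves, had at most 2 reads in any library of these apices and was not tested. *GA3OX1* (AALP_AA1G176200), a gibberellin synthesis gene repressed by the TEM proteins in Arabidopsis, was at 14.2, 6.59 and 6.11 CPM in replicates A, B and C of wild type, at 16.9, 11.5 and 9.14 CPM in *pep1-1* and at 20, 11.7 and 12.5 CPM in *pep2-1*. Replicate A was its highest library in each genotype, as in 12.9% of all genes tested. *TEM1* was lowest there, as were 11% of genes. *GA3OX2*, with only 9 to 32 reads per library, was at 1.6, 1.06 and 0.632 CPM in replicates A, B and C of wild type. It was at 2.1, 0.794 and 1.02 CPM in *pep1-1* and at 1.77, 2.47 and 1.81 CPM in *pep2-1*. By rank, *GA3OX2* was highest and *TEM2* lowest in replicate A of wild type and *pep1-1*, and the reverse in that of *pep2-1*. These ranks include near ties, namely *TEM2* in wild type A and B (7.73 and 7.82 CPM) and *GA3OX2* in *pep2-1* A and C. A link between these levels was not tested. The log2 fold change of *GA3OX1* was 0.74 in *pep2-1* over wild type (SE 0.351; edgeR adjusted p = 0.353) and 0.50 in *pep1-1* over wild type (SE 0.353; adjusted p = 0.932). The *pep2-1* value depended on the setting, from 0.44 to 1.21, with an adjusted p of 0.0144 with a replicate block, 0.0356 with limma-voom and 0.0111 without the replicates A, and of up to 0.713 in others. *GA20OX2*, a gibberellin synthesis gene that SVP represses in Arabidopsis, ranged from 9.13 to 14.0 CPM in wild type, from 6.13 to 20.4 CPM in *pep1-1* and from 10.8 to 13.2 CPM in *pep2-1*, with overlap among the 3 genotypes.

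The other 11 genes of the RAV and NGATHA family, to which the *TEM* genes belong, all had a row. Of these, 8 were tested and 0 were called in any comparison by edgeR, DESeq2 or limma-voom. At an unadjusted edgeR p under 0.05 there were 3 (*RAV1*, *NGA2* and *NGA3*) in *pep2-1* over wild type, 1 (*RAV1*) in *pep1-1* over wild type and 0 in *pep2-1* over *pep1-1*, where 15.3%, 6.36% and 19.1% of all genes were under that p. Their median log2 fold changes were −0.04, −0.15 and −0.05 in *pep2-1* over wild type, *pep1-1* over wild type and *pep2-1* over *pep1-1*. *RAV1* (AALP_AA1G146100), the most abundant of them, was at 16.8, 13.3 and 16.0 CPM in replicates A, B and C of wild type. It was at 29.9, 22 and 22.7 CPM in *pep1-1* and at 26.5, 21.9 and 19.2 CPM in *pep2-1*. All libraries of both mutants lay above those of wild type, but with log2 fold changes of 0.70 (edgeR adjusted p = 0.231) and 0.56 (adjusted p = 0.133) the gene did not pass the test. With a replicate block the adjusted p was 0.026 in *pep1-1* (log2 fold change 0.69) and 0.0176 in *pep2-1* (0.55). Over the alternatives it ranged from 0.0201 to 0.636 in *pep1-1* and from 0.0176 to 0.412 in *pep2-1*, and the fold threshold was never reached. *NGA2* (AALP_AA5G278100), one of the NGATHA genes of leaf and carpel development, was at 4.67, 6.47 and 5.90 CPM in wild type and at 2.97, 3.94 and 3.07 CPM in *pep2-1*. These groups did not overlap either, with a log2 fold change of −0.78 (SE 0.188; edgeR adjusted p = 0.0813). The adjusted p was 0.0464 with DESeq2, 0.00937 with limma-voom and 0.0429 without replicate A of wild type, and up to 0.299 in other settings. A lack of overlap, as for *RAV1* and *NGA2*, occurred in 21.5% of all genes tested in *pep2-1* over wild type. In *pep1-1* over wild type, as for *RAV1*, that share was 10.9%. *EDF3*, a further RAV gene, ranged from 3.18 to 7.5 CPM over the 9 libraries.

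**Figure D5:**
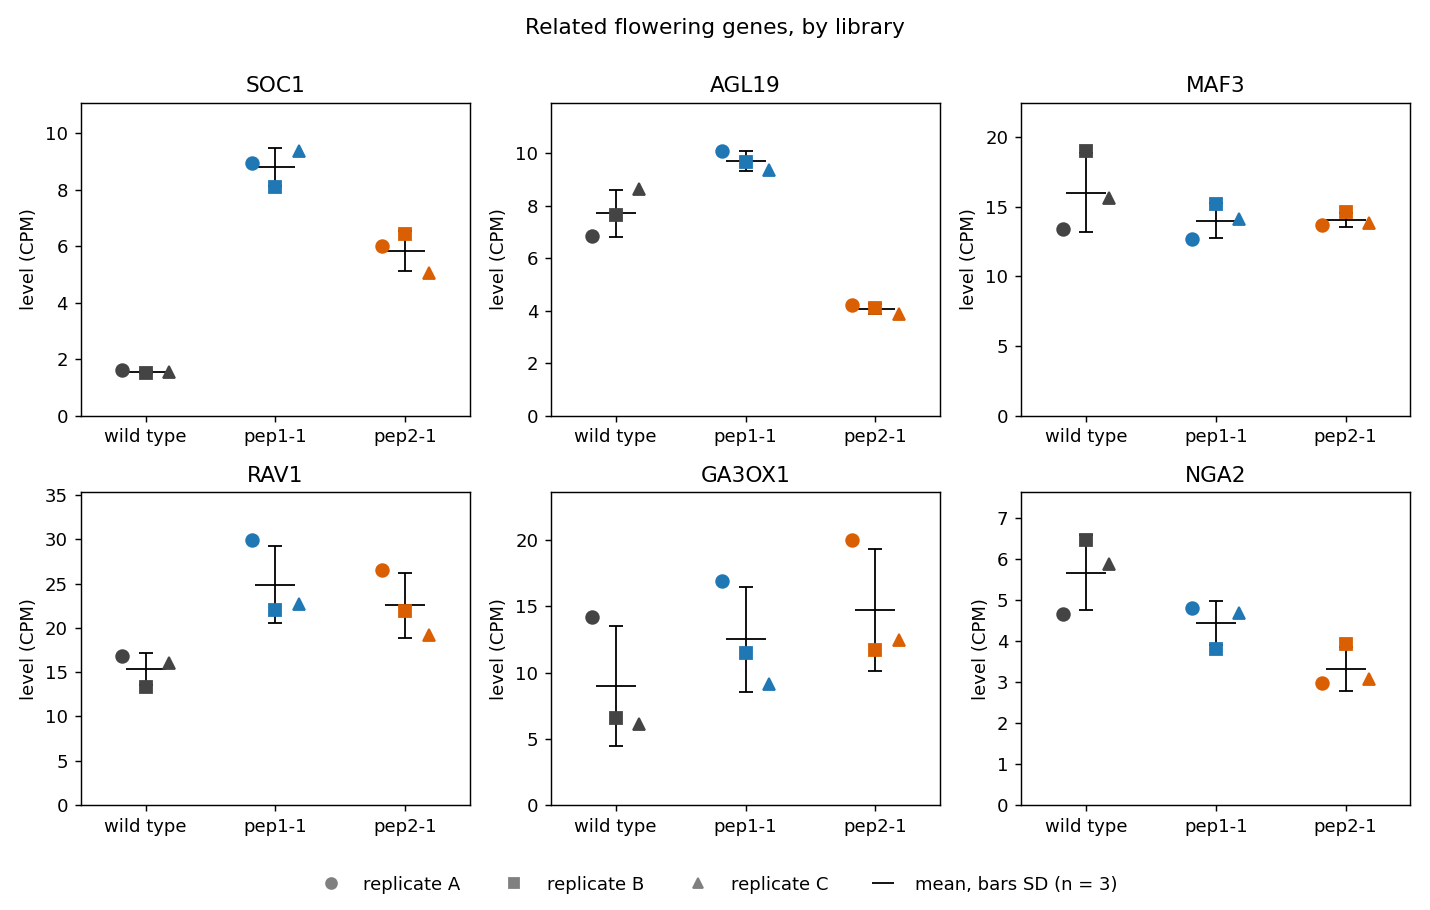
Level of 6 related genes in CPM (vertical axes, from 0) in each library of the 3 genotypes, with the replicate letter as the symbol and the mean and SD of 3 libraries in black. *SOC1* is above wild type in all libraries of both mutants, *AGL19* is lowest in *pep2-1* and *RAV1* is lowest in wild type, whereas the genotypes overlap for *MAF3* and *GA3OX1*; *NGA2* in *pep2-1* is below wild type and overlaps *pep1-1*.

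All 11 genes known to act upstream of *SVP* or on the splicing of *FLM* in Arabidopsis were tested, and 0 were called in any comparison by edgeR, DESeq2 or limma-voom. At an unadjusted edgeR p under 0.05 there was 1, *LHP1* in *pep2-1* over *pep1-1*, where 19.1% of all genes were under that p. Their median log2 fold changes were −0.04, 0.04 and −0.06 in the same order of comparisons. *FVE*, which represses *SVP* in the Arabidopsis response to ambient temperature, was steady at 107 to 126 CPM. *GRP7* and *GRP8*, which encode RNA-binding proteins under clock control, ranged more widely, from 946 to 1730 CPM and from 318 to 611 CPM. Both were highest in replicate A of wild type and *pep1-1* and lowest in that of *pep2-1*, the reverse of *LHY*.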

How the data were processed

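Poly(A) RNA of the 9 samples was read as 100 bp single ends; the authors mapped the reads to the *A. alpina* reference genome with TopHat (default parameters) and ran CuffDiff. Versions and the annotation release are not stated. The deposited raw reads per gene were treated by their unit as estimated counts, which the authors made from the mapped reads without scaling; 64 genes had fractional values, which were rounded. The FPKM of each genotype was pooled over its 3 libraries by the authors with CuffDiff and served only to compare levels between genes. Columns name genotype and a replicate letter whereas the labels number replicates, so libraries were assigned by genotype. Fold changes and p-values of the authors' own comparisons (9 columns) were not used. Each library entered once, as its raw reads, so the scaled reads and FPKM of single libraries (18 columns) were not used either. The order per length, planned on FPKM of single libraries, was therefore taken from pooled FPKM and scaled CPM.

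Genes were filtered with filterByExpr (minimum count 10, total 15), which left 21713 including the 4 members, and tested with the quasi-likelihood test of edgeR 4.0.16 (TMM) in 1 model of 9 libraries, with Benjamini-Hochberg adjustment over all of them. Standard errors were derived from the size of the fold change and its F. Correlations, the spread within genotypes and the principal components used log2(CPM + 2). Same-letter libraries of wild type and *pep1-1* deviated together (r = 0.626, 0.385 and 0.319 for A, B and C), a pairing seen in the data and not stated by the labels. Between unlike letters of these genotypes r was at most 0.24 (wild type B with *pep1-1* C). The block is therefore given beside that comparison where it moved a count. The scripts were tested on simulated data. Counting errors cover reads only.

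Alternatives were DESeq2 1.42.0, limma 3.58.1 (voom with quality weights), other scalings and no filter, the 6 libraries compared, a replicate block, each library left out, no fold threshold and, chosen after the data were seen, no replicates A. Members and gene lists were chosen with earlier results of these data known. Named were all members, list genes called or with an adjusted p of at most 0.05, otherwise up to 3 per list with the highest mean CPM, and 2 genes of most similar pattern per member. *LHY*, *FT*, *GA3OX2*, *NGA3*, *LHP1*, *MAF4*, neighbours of the gene paired with *FLM* and marker genes were named beside this rule where a statement needs them.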

Additional observations from a re-analysis of the deposited data

How the results depend on the processing

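Of 204 member values under the alternatives, 191 kept their direction, 0 were called and 2 had an adjusted p of at most 0.05, both of *TEM2* without the replicates A. The 13 that changed sign were all small. Without the replicates A these were *SVP* (−0.088) and the gene paired with *FLM* (−0.025) in *pep2-1* over *pep1-1*, and *TEM1* (−0.017) and *TEM2* (0.047) in *pep1-1* over wild type; limma-voom gave −0.064 for *TEM1* in *pep1-1* over wild type. With 1 library left out, the values ranged from −0.044 to 0.36 for *SVP* in *pep2-1* over wild type and −0.14 to 0.25 over *pep1-1*, from −0.21 to 0.012 and −0.07 to 0.17 for the gene paired with *FLM* in the same comparisons, from −0.77 to −0.18 and −0.77 to −0.32 for *TEM1* in the same comparisons, and from −0.17 to 0.42 for *TEM1* and −0.092 to 0.14 for *TEM2* in *pep1-1* over wild type. *AGL19* in *pep2-1* over wild type passed the fold threshold without the replicates A, at −1.02.

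Counts of called genes moved more. For *pep2-1* over wild type (181 in the main test) they were 287 with DESeq2, 655 with limma-voom, 330 with no fold threshold, 541 without the replicates A, and 69 to 311 with 1 library left out. For *pep1-1* over wild type (35) they were 70 with DESeq2, 23 with the 6 libraries compared, 60 without the replicates A and 15 to 31 with 1 library left out. For *pep2-1* over *pep1-1* (290) they were 482, 568 and 545 in the order first given, 723 without the replicates A and 92 to 556 with 1 library left out. Without WT replicate B and without *pep1-1* replicate B the lowest counts, 69 and 92, were reached. The replicate block gave 399, 57 and 663 calls and changed the call of no member or other named gene. Same-letter deviations of *pep2-1* and wild type correlated at 0.472, 0.388 and 0.014 for A, B and C, and those of *pep2-1* and *pep1-1* at 0.312, 0.077 and −0.027. The values of A and B with wild type lay within the range of wild type and *pep1-1* (0.319 to 0.626). Unlike letters reached 0.426 (wild type C with *pep2-1* B) and 0.387 (*pep1-1* C with *pep2-1* B). The letters were not taken as pairs in the *pep2-1* comparisons. The causes were not tested. Depth limits *TEM2* most, at 68 to 191 reads. The planned fits of limma on FPKM of single libraries were not run, since each library entered once, as its reads.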
